A study of Mus musculus with 4 samples.

Results

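The 45 genes described here encode the proteins that prepare replication origins, open and copy DNA at the fork, supply deoxynucleotides and histones, and take a cell from G1 into S phase. They were listed by name for these functions, with earlier results of these data known. All 45 were found by symbol among the 55487 genes in the deposited tables, and all 45 were among the 17155 genes that passed edgeR's filter on low counts. The experiment asked which transcripts respond to miR-181a-5p in mouse small intestinal (SI) organoids, which are epithelial cultures grown from crypts and hold stem cells together with their differentiated progeny. All organoids carried a lentivirus and grew under selection with puromycin at 2 μg/ml. In the mimic control group (replicates 1 and 2) the virus expressed a miRNA mimic control, and in the miR-181a-5p mimic group (replicates 3 and 4) it expressed a miR-181a-5p mimic. Each culture was a population that survived selection, and the strain and age of the mice and the promoter of the vectors are not given in the sources used here for this experiment. Nothing states that replicates were separate infections, so p-values measure the spread between these libraries, which may be technical.

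Replication follows a fixed order. In G1 the origin recognition complex, Cdc6 and Cdt1 load the ring-shaped MCM2-7 helicase onto DNA. At the start of S phase Cdc45 and the GINS complex join the ring, which then unwinds DNA for the polymerases. Most of these genes are transcribed in late G1 under E2F transcription factors, which cyclin D and cyclin E kinases release from the retinoblastoma protein. In the small intestine their transcripts mark the dividing cells of the crypt, while enterocytes on the villus have left the cell cycle.

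The miRNA and its seed matches in the members are shown first because seed matches are where a miRNA is most often sought on its targets. Capitals in the miRNA mark the seed, bases 2 to 8 from the 5′ end, as given by RefSeq (GRCm38.p6) for Mir181a-1 at chr1:137966468-137966490 and for Mir181a-2 at chr2:38852741-38852763, both on the plus strand.
miR-181a-5p: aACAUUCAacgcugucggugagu
The longest 3′ UTR of at least 50 bases annotated by GENCODE release 21 was searched for the complement of the seed, TGAATGT, and for the same site followed by A. Of the 44 members with such a UTR, 2 held a site (4.55%), against 2362 of 12847 tested genes (18.4%). The members' UTRs had a median length of 768 bases and those of all tested genes 1165 bases. The part of this difference in the shares was not tested. The sites lie on the minus strand of GRCm38, in Pcna at chr2:132249379-132249407 and in Slbp at chr5:33640384-33640412, and the Slbp site is the longer form with the following A. Capitals mark the site.
Pcna: ttttgttaacaTGAATGTttctgctttac
Slbp: ttttatcaatgTGAATGTAgttttccctc
A match of letters is a description and not evidence of binding. Neither gene passed the test in these libraries, as given below.

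Promoters are shown because so many members are known to be controlled together. RefSeq promoters (GRCm38.p6, 250 bases before to 50 after the start) were available here for 36 members, not for Mcm4, Gins1, Gins2, Gins4, Rfc2, Pole, Prim2, Ccnd1 or Ccne2. The E2F-type letters TTTGGCGC or TTTCGCGC were found on either strand in 11 of the 36 members (30.6%), against 0.929% of 27025 genes. Among the 17 genes of a G2 and mitosis list with a promoter, 1 held such a match (5.88%). The motifs overlap where one continues into the reverse complement of the other, as in Mcm5 and Mcm6. The members with a match were Orc1, Cdt1, Mcm3, Mcm5, Mcm6, Mcm7, Pola1, Pole2, Rfc3, Lig1 and Uhrf1. The letters CCAAT were in 55.6% of members and 41.1% of all genes, and TTTGAA in 11.1% and 20.2%. In the G2 and mitosis list these shares were 88.2% and 70.6%. Windows from the helicase genes and Orc1 follow, with the match in capitals: Orc1 at chr4:108579416-108579445 (plus strand), Mcm3 at chr1:20820263-20820285 (minus), Mcm5 at chr8:75109345-75109374 (plus), Mcm6 at chr1:128359797-128359826 (minus) and Mcm7 at chr5:138171849-138171878 (minus).
Orc1: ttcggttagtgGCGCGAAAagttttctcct
Mcm3: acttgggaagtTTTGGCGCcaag
Mcm5: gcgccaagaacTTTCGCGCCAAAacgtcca
Mcm6: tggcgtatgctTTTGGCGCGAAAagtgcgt
Mcm7: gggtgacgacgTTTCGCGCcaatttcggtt
The median log2 fold change was 0.22 over the 11 members with a match and 0.24 over the 25 with a promoter and no match. The medians lay close together, and their difference was not tested. Mcm2 and Fen1, which passed the test below, were among the 25 without a match.

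The 4 libraries held between 31104884 and 38111731 expected counts, the estimate by RSEM of the reads from each gene, and a member had between 147 and 7598 counts in a library. The biological coefficient of variation common to all genes was 0.13. For 1 gene in 2 against 2 libraries the smallest p of an exact permutation test is 0.333, so calls rest on the spread that edgeR's model shares across genes. Mitochondrial transcripts took 4.3% and 4.55% of counts under the mimic control and 3.46% and 3.43% with the mimic, and the part of this difference in the results was not tested. Mature miRNAs are not captured by libraries of this kind, so the level of the mimic was not analysed here. The epithelial label was checked on 7 markers, all of which passed the filter on low counts, with Epcam, Cdh1 and Vil1 each at 238.2 TPM or more in every library. Their summed TPM (a level normalized for transcript length and library size) was 2899 and 2919 in controls and 2592 and 3072 with the mimic. None of the 7 passed the test described below. In normalized counts both mimic libraries lay above both controls for Cdx2 and below both for Cdh1 and Krt18. Summed TPM stayed between 2.76 and 7.45 for 9 mesenchymal markers, with Col1a2, Col3a1, Dcn and Lum at 0 counts in all libraries. It stayed between 2.89 and 3.35 for 7 leukocyte markers and between 0.16 and 0.43 for 5 endothelial markers, with the endothelial markers Cdh5, Kdr and Emcn at 0 counts in all libraries.

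With the miR-181a-5p mimic most replication and S phase transcripts were measured at slightly higher levels than with the mimic control. The log2 fold change was above 0 for 42 of the 45 members (93.3%), against 48.6% of all tested genes, and with upper-quartile scaling it was above 0 for 39. Its median was 0.23 over the members and −0.01 over all tested genes. The changes were small, between 0.1 and 0.4 on the log2 scale for 28 members. Adjusted over all tested genes (edgeR's quasi-likelihood test, Benjamini-Hochberg method), 3 members rose (6.67%) at an adjusted p under 0.05, namely Mcm2, Fen1 and Ccne2, against 1.28% of all genes called higher. DESeq2 called 8 members higher, beside 613 of 17155 genes. Limma on log2(TPM + 1) called 0 members higher, beside 32 of 14035 genes. It had 17 members at an unadjusted p under 0.05, and the share of all genes at that limma p is not given here. No member fell, and 2.29% of all genes were called lower. The count of members lower was also 0 at an unadjusted p under 0.05 in this edgeR fit. At an adjusted p under 0.05 it was 0 by DESeq2, by limma and by each other alternative fitted to all 4 libraries. At an unadjusted p under 0.05, 19 members (42.2%) were higher, against 11.8% of all genes. Over all 17155 tested genes, 4250 had such a p in either direction, 2028 of them higher and the rest lower. Adding the fold change of at least 2 that the study used left 0 members by edgeR's quasi-likelihood test. That test then called 2.06% of all genes in either direction. DESeq2 left 1 member, Ccne1, and its share of all genes with this fold change is not given here. Genes of 1 pathway in the same 4 libraries are not independent, and no test was made over the list. The calls also depended on single libraries. Mcm2, Fen1 and Ccne2 were all lost without mimic control replicate 1 and without miR-181a-5p mimic replicate 3. Genes called higher over the whole table became fewer without miR-181a-5p mimic replicate 3, but not without mimic control replicate 1. Without mimic control replicate 2 or without miR-181a-5p mimic replicate 4 more members passed, and more genes were called higher over the whole table. The directions moved less, with between 39 and 42 members above 0 in these 4 fits, and a median between 0.17 and 0.28.

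**Figure D1:**
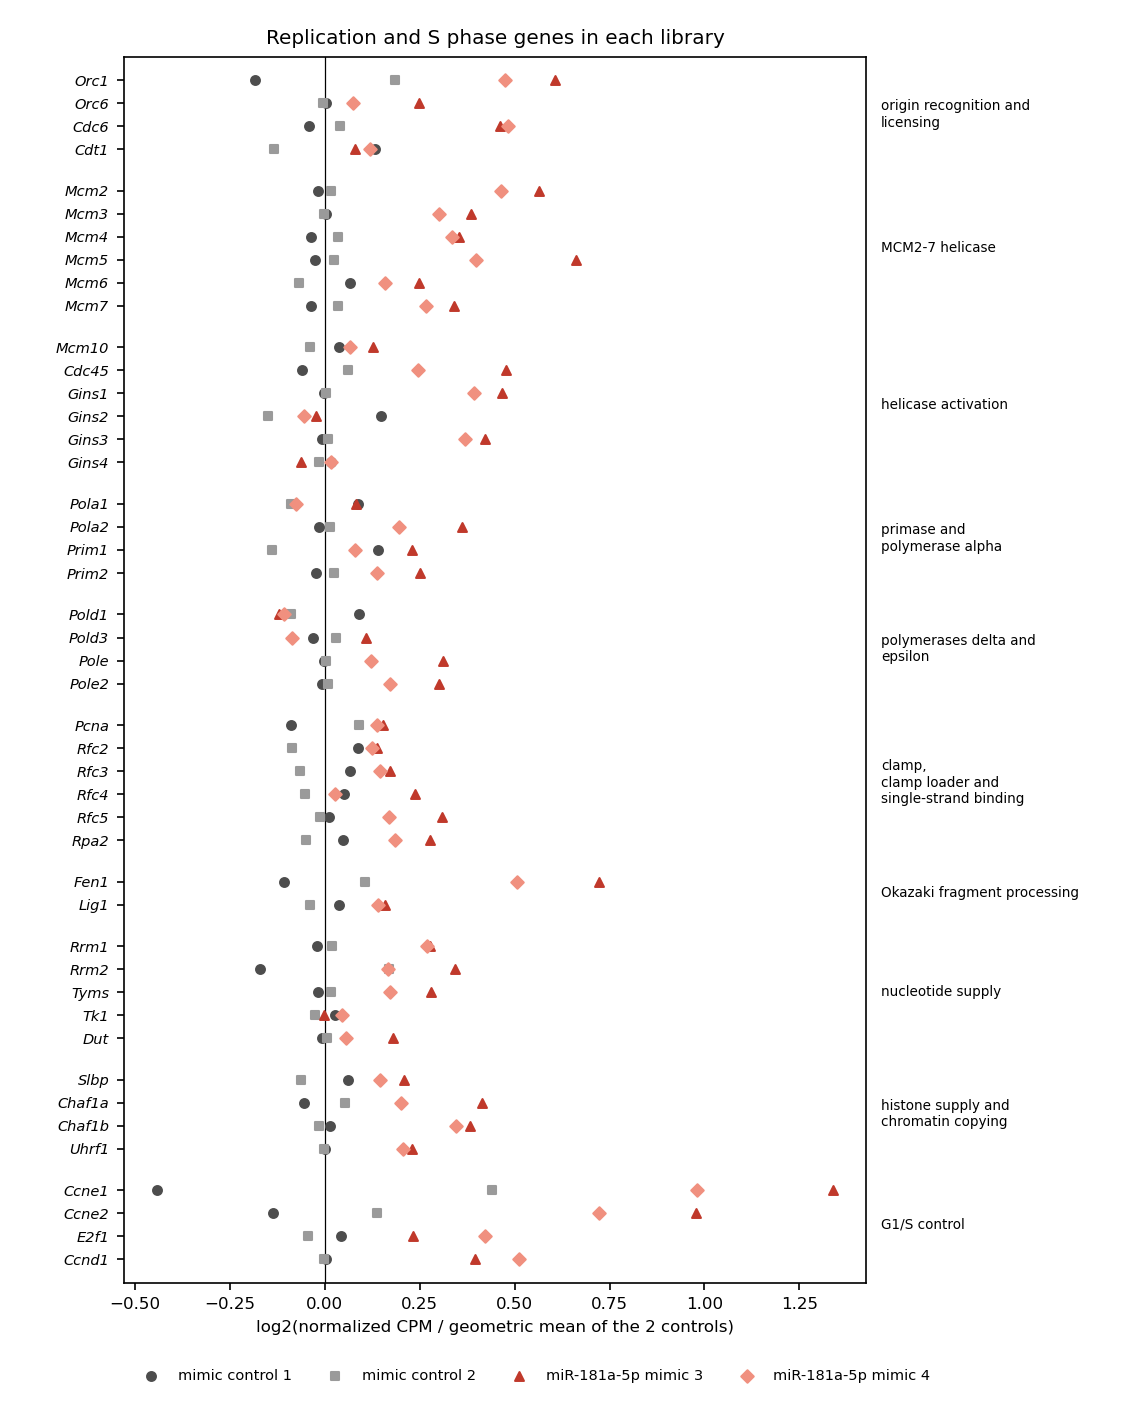
Each of the 45 members is a row, grouped by role. The horizontal axis is the log2 ratio of a library's normalized CPM (counts relative to library size) to the geometric mean of the 2 controls. Circles and squares are mimic controls 1 and 2 and triangles and diamonds are miR-181a-5p mimics 3 and 4. In 35 rows both mimic points lie right of both control points, and the widest distance is in Ccne1.

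The plot of normalized counts by library shows how the members were placed in each culture. CPM here are counts per library size after its TMM factor was applied. Both mimic libraries lay above both controls in 35 members (77.8%), against 28.9% of all tested genes. They lay below both controls in 1 member, Pold1, and the groups overlapped in Cdt1, Gins2, Gins4, Pola1, Prim1, Pold3, Rfc4, Rrm2 and Tk1. The shares of all tested genes below both controls or overlapping are not given here. Of the 4 libraries, mimic replicate 3 was the highest in 36 members, mimic replicate 4 in 5, control replicate 1 in 4 and control replicate 2 in 0. The median log2 ratio to the control mean over the members was 0.28 in mimic replicate 3 and 0.17 in mimic replicate 4. The sum of the members' TPM was 1326 and 1364 under the mimic control and 1604 and 1631 with the mimic. In RNA from whole organoids, more cells in S phase and more of these transcripts per cell cannot be told apart.

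**Figure D2:**
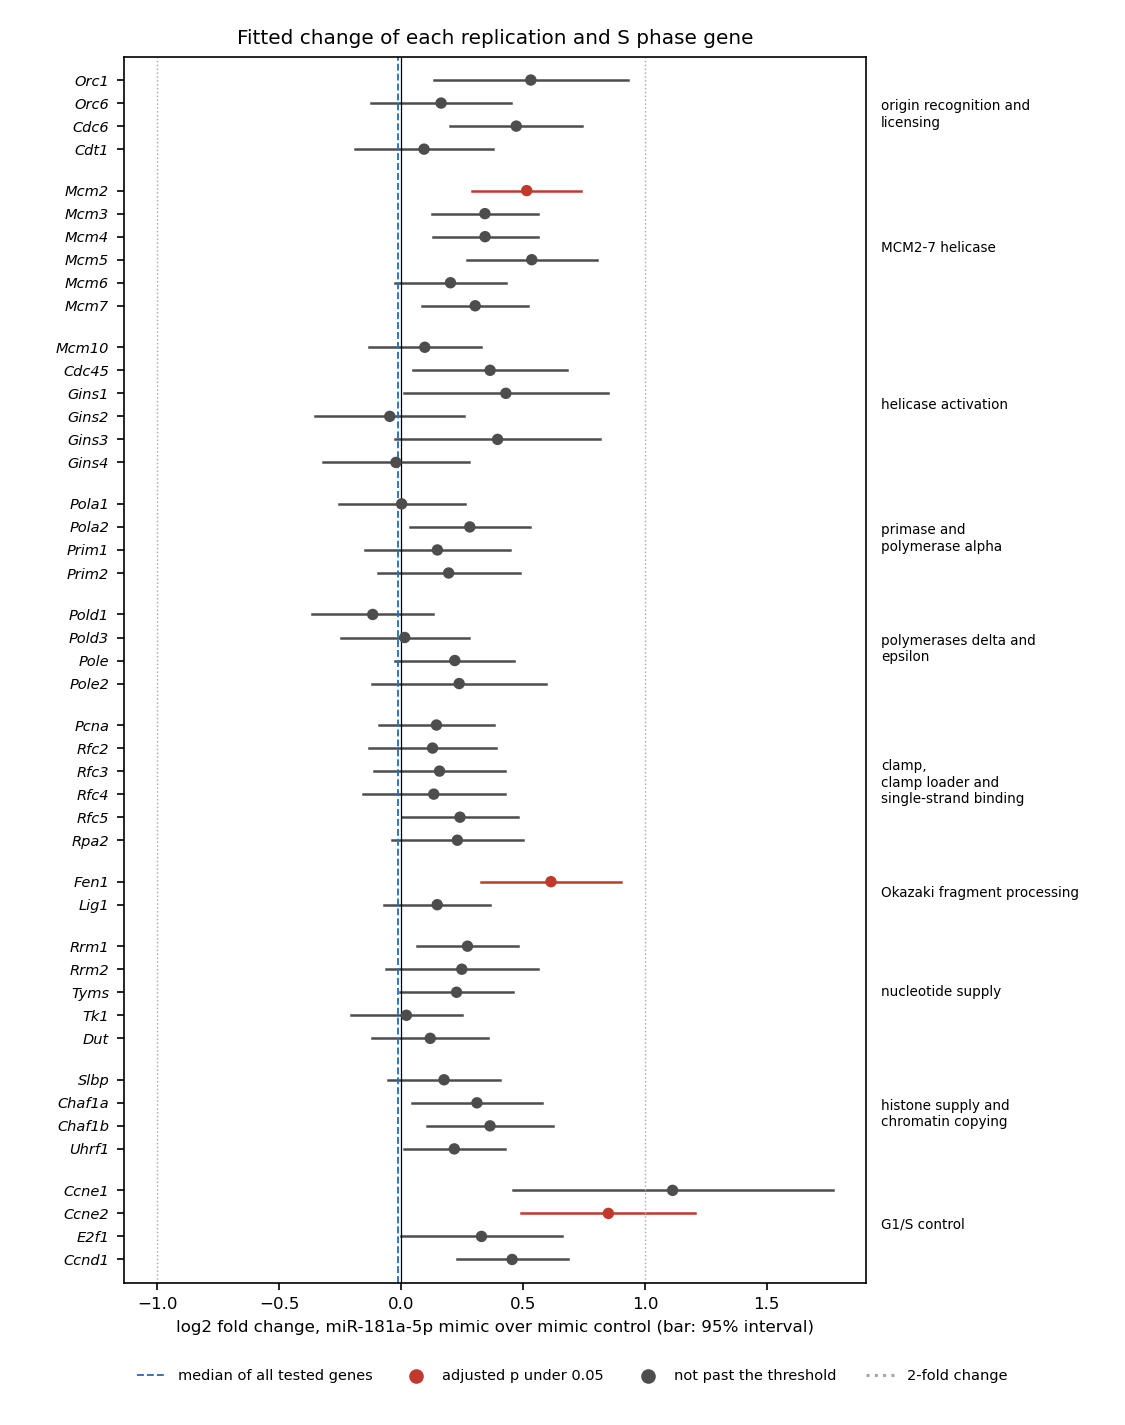
Points are the fitted log2 fold change of each member, miR-181a-5p mimic over mimic control, and bars are 95% intervals from edgeR's quasi-likelihood fit. The dashed line is the median of all tested genes at −0.01, dotted lines mark a 2-fold change and red marks an adjusted p under 0.05. Red points are Mcm2, Fen1 and Ccne2, and 43 of the 45 intervals stay inside the dotted lines.

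Origin recognition and licensing takes place before S phase, when Orc1, Orc6, Cdc6 and Cdt1 help to load the helicase. No gene of this group passed the test, 2 of 4 were higher at an unadjusted p under 0.05, and the group's median log2 fold change was 0.32. Orc1, an ATP-binding subunit of the origin recognition complex, had 8.42 and 10.9 CPM under the mimic control and 14.6 and 13.3 in the mimic libraries, a log2 fold change of 0.53 ± 0.17 (SE, edgeR adjusted p = 0.119). Cdc6, the loader that joins the complex at the origin, had 18.3 and 19.4 against 26.0 and 26.3 CPM, a log2 fold change of 0.47 ± 0.12 (SE, edgeR adjusted p = 0.0703). For these genes the groups did not overlap. Cdt1, which brings MCM2-7 to the origin, had 43.2 and 36.0 CPM under the mimic control and 41.7 and 42.8 with the mimic, so the mimic libraries lay between the controls (log2 fold change 0.09 ± 0.12, edgeR adjusted p = 0.669). Orc6 lay between 20.6 and 24.5 CPM, with a log2 fold change of 0.16.

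The MCM2-7 subunits shared a direction. All 6 had both mimic libraries above both controls, 5 of 6 were higher at an unadjusted p under 0.05, and 1 of 6, Mcm2, rose at an adjusted p under 0.05. Their log2 fold changes ran from 0.20 (Mcm6) to 0.54 (Mcm5), with a median of 0.34. The summed TPM of the 6 genes was 242.9 and 245.8 under the mimic control and 315 and 322.6 with the mimic. Mcm2 (ENSMUSG00000002870, chr6:88883474-88898780, GRCm38, minus strand) had 62.2 and 63.7 CPM under the mimic control and 93.0 and 86.9 with the mimic. Its groups stood far apart compared with the distance within each, and its log2 fold change was 0.51 ± 0.10 (SE, edgeR adjusted p = 0.0369). Mcm5 had 65.1 and 67.4 CPM under the mimic control and 104.8 and 87.3 with the mimic. The mimic libraries were farther from each other here than in Mcm2, and the log2 fold change of 0.54 ± 0.11 had an edgeR adjusted p of 0.0511. Mcm7, the subunit with the highest TPM, had 104.8 and 110.0 against 135.9 and 129.2 CPM, a log2 fold change of 0.30 ± 0.09 (SE, edgeR adjusted p = 0.109). The other subunits, Mcm3, Mcm4 and Mcm6, had log2 fold changes of 0.34, 0.34 and 0.20, with edgeR adjusted p between 0.0834 and 0.248.

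**Figure D3:**
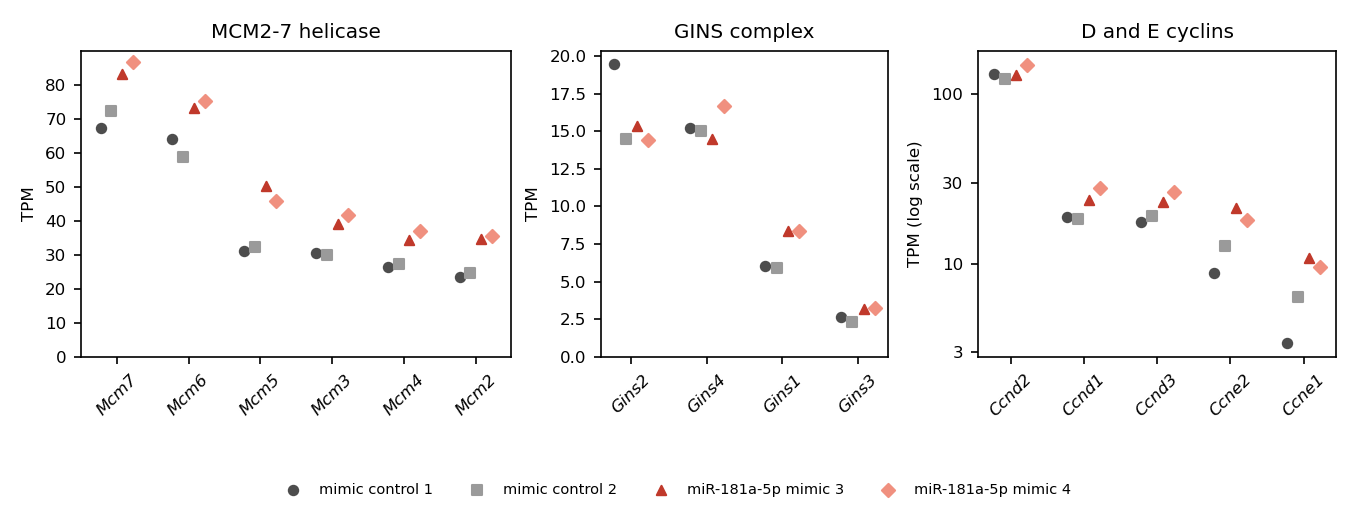
Levels of subunits as TPM in each library, on a linear scale for the MCM2-7 helicase and the GINS complex and a log scale for the D and E cyclins. Mcm7 and Mcm6 sit above the other 4 helicase subunits in every library, Gins1 and Gins3 sit below Gins2 and Gins4, and Ccnd2, which is outside the 45 members, stays at 122.5 TPM or more.

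The subunits of the ring enter it in equal number, but their transcripts did not have equal levels. Per length, Mcm7 was the highest subunit, at 67.2 and 72.5 TPM under the mimic control and 83.2 and 86.8 with the mimic, and Mcm2 stood at 23.4 and 24.6 against 34.8 and 35.7 TPM. The order from high to low was Mcm7, Mcm6, Mcm5, Mcm3, Mcm4 and Mcm2 in 3 libraries, and mimic replicate 3 differed only in that Mcm2 and Mcm4 changed places. The order of the subunits was thus nearly the same in both groups, as the plot of subunit levels shows.

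Genes of helicase activation ranged in log2 fold change from −0.05 to 0.43. Of Mcm10, Cdc45 and the 4 GINS subunits, 0 passed edgeR's test in either direction and 2 were higher at an unadjusted p under 0.05. Cdc45, which binds the ring at the onset of S phase, had 16.4 and 17.8 CPM under the mimic control and 23.7 and 20.2 in the mimic libraries, a log2 fold change of 0.36. Gins1 and Gins3 had log2 fold changes of 0.43 and 0.40, both with groups that did not overlap. Their partners Gins2 and Gins4 had −0.05 ± 0.13 (SE, edgeR adjusted p = 0.856) and −0.02 ± 0.13 (SE, edgeR adjusted p = 0.935), and in both the groups overlapped. Gins2 was spread within the controls, at 32.8 and 26.7 CPM, around the mimic values of 29.2 and 28.5. Gins4 lay between 15.3 and 16.2 CPM in all 4 libraries. The difference between the GINS subunits was not tested. Mcm10, which helps to fire the assembled helicase and had the highest mean TPM of this group, had 51.9 and 49.1 against 55.1 and 52.9 CPM (log2 fold change 0.10 ± 0.10, edgeR adjusted p = 0.579).

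The polymerase groups had median log2 fold changes of 0.17 for polymerase alpha-primase and 0.12 for polymerases delta and epsilon. The 4 subunits of polymerase alpha-primase, which lays down primers, had log2 fold changes of 0.00 (Pola1), 0.28 (Pola2), 0.15 (Prim1) and 0.19 (Prim2), and 0 of 4 passed the test, with 1 of 4 at an unadjusted p under 0.05. Prim1, the catalytic primase subunit and the highest of the 4 in TPM in every library, had 44.4 and 36.5 CPM under the mimic control and 47.2 and 42.5 with the mimic, so the groups overlapped (log2 fold change 0.15 ± 0.13, edgeR adjusted p = 0.506). Polymerases delta and epsilon, which copy the lagging and the leading strand, had 0 of 4 genes past the test and 0 of 4 at an unadjusted p under 0.05. Pold1, the catalytic subunit of polymerase delta, had 55.7 and 49.2 CPM under the mimic control and 48.1 and 48.6 with the mimic. It had the lowest log2 fold change of the 45 members at −0.12 ± 0.11 (SE, edgeR adjusted p = 0.53), with a 95% interval from −0.36 to 0.13. Pold3, an accessory subunit of the same polymerase, had 38.5 and 40.1 against 42.4 and 37.0 CPM (log2 fold change 0.01 ± 0.11, edgeR adjusted p = 0.952). Pole and Pole2 of polymerase epsilon had log2 fold changes of 0.22 and 0.24, each with groups that did not overlap.

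Pcna, the sliding clamp that holds polymerases on DNA, had the highest TPM of all 45 members. Its TPM was 163.4 and 190.1 under the mimic control and 196.7 and 209.9 with the mimic. On the CPM scale it had 182.2 and 206.3 against 215.8 and 213.4, so control replicate 2 lay close below the mimic libraries. The log2 fold change was 0.14 ± 0.10 (SE, edgeR adjusted p = 0.409), with a 95% interval from −0.09 to 0.38. Of the clamp loader genes, Rfc2, Rfc3, Rfc4 and Rfc5 had log2 fold changes between 0.13 and 0.24, and Rpa2, a subunit of the single-strand binding complex RPA, had 0.23. In these 6 genes 0 passed the test, 1 was higher at an unadjusted p under 0.05, and the groups were apart in all but Rfc4.

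Okazaki fragments, the short pieces of the lagging strand, are trimmed by the flap endonuclease Fen1 and sealed by DNA ligase 1, Lig1. Fen1 (ENSMUSG00000024742, chr19:10199132-10204169, GRCm38, minus strand) had 37.5 and 43.5 CPM under the mimic control and 66.7 and 57.4 with the mimic. The groups were well apart, and Fen1 rose by a log2 fold change of 0.61 ± 0.12 (SE, edgeR adjusted p = 0.046). Lig1 had 81.4 and 77.2 CPM under the mimic control and 88.4 and 87.3 in the mimic libraries, a log2 fold change of 0.15 ± 0.09 (SE, edgeR adjusted p = 0.359). Fen1 shares exon positions with Tmem258 on the opposite strand, and whether counting used the strand is not given in the sources used here. Tmem258 itself lay between 30.1 and 35.4 CPM in the 4 libraries.

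The genes of nucleotide supply had a median log2 fold change of 0.23, with 0 of 5 past the test and 1 of 5 higher at an unadjusted p under 0.05. Rrm1, the large subunit of ribonucleotide reductase, had 150.3 and 154.5 CPM under the mimic control and 184.5 and 183.5 in the mimic libraries, a log2 fold change of 0.27 ± 0.09 (SE, edgeR adjusted p = 0.124). Its partner Rrm2 was spread in the controls, at 68.6 and 86.8 CPM, and reached 97.9 and 86.7 in the mimic libraries (log2 fold change 0.25 ± 0.13, edgeR adjusted p = 0.291). Thus 1 control and 1 mimic library were level for Rrm2, while for Rrm1 the groups did not overlap. Tyms, which makes thymidylate, and Dut, which removes dUTP, had log2 fold changes of 0.23 and 0.12 with groups apart. Tk1, the salvage thymidine kinase, lay between 48.4 and 50.9 CPM in all libraries with a log2 fold change of 0.02.

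Histone supply and chromatin copying comprised Slbp, which binds the stem-loop of replication-dependent histone mRNAs, the CAF-1 subunits Chaf1a and Chaf1b, and Uhrf1, which brings maintenance methylation to new DNA. In all 4 genes both mimic libraries lay above both controls, with 3 of 4 higher at an unadjusted p under 0.05 and 0 of 4 past the adjusted threshold. Uhrf1 had 117.4 and 117.1 CPM under the mimic control and 137.6 and 135.2 with the mimic. Its replicates lay close together, and its log2 fold change was 0.22 ± 0.09 (SE, edgeR adjusted p = 0.186). Chaf1b had a log2 fold change of 0.36 and Chaf1a one of 0.31. Slbp, whose 3′ UTR holds the 8-base form of the miR-181a-5p site printed above, had 71.9 and 66.0 against 79.5 and 76.2 CPM. Its log2 fold change was 0.18, with a 95% interval from −0.05 to 0.40.

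The largest fitted changes among the members were in the E cyclins, which activate Cdk2 at entry into S phase. The G1/S control group had a median log2 fold change of 0.65, groups apart in 4 of 4 genes, and 1 gene, Ccne2, that rose at an adjusted p under 0.05. Ccne2 (cyclin E2, ENSMUSG00000028212, chr4:11191351-11204779, GRCm38, plus strand) had 12.8 and 15.5 CPM under the mimic control and 27.8 and 23.3 with the mimic. Its log2 fold change was 0.85 ± 0.15 (SE, edgeR adjusted p = 0.034), a 1.8-fold difference. Ccne1, cyclin E1, had 4.43 and 8.16 CPM under the mimic control and 15.2 and 11.9 with the mimic. It had the highest log2 fold change of the 45 members, 1.11 ± 0.28 (SE), or 2.16-fold, and did not pass the test (edgeR adjusted p = 0.0744). The controls differed by 1.84-fold from each other in Ccne1, and its 95% interval ran from 0.46 to 1.77 on the log2 scale. Without mimic control replicate 2 or without miR-181a-5p mimic replicate 4, edgeR called Ccne1. Without mimic control replicate 1 its log2 fold change was 0.72 and it was not called.

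Ccnd1, cyclin D1, a marker of proliferating cells in the study, had 54.6 and 54.4 CPM under the mimic control and 71.7 and 77.7 with the mimic. The controls were nearly equal and both mimic libraries lay above them, with a log2 fold change of 0.46 ± 0.10 (SE) and an edgeR adjusted p of 0.0514, just short of the threshold. Per length, Ccnd1 ran from 18.3 to 28.1 TPM. The related Ccnd2, not a member, was at 122.5 to 149 TPM in every library and had a log2 fold change of 0.03. Ccnd3, also not a member, had a log2 fold change of 0.38 ± 0.11 (SE, edgeR adjusted p = 0.0979), with groups that did not overlap. Differences between the D cyclins were not tested. E2f1, a transcription factor that activates many genes of this list, had 12.6 and 11.9 CPM under the mimic control and 14.4 and 16.4 in the mimic libraries, a log2 fold change of 0.33 (edgeR adjusted p = 0.204). Ccne2 shares exon positions with Ints8 on the opposite strand, which lay between 54.2 and 64.5 CPM in the 4 libraries. In all, 17 of the 45 members share exon positions with another annotated gene.

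The other genes of the pathway, listed by function, were compared in the same fit. Of 33 other replication genes, 2 rose and 0 fell at an adjusted p under 0.05, with 28 above 0 and a median log2 fold change of 0.19. At an unadjusted p under 0.05, 13 were higher and 1 was lower, beside the 11.8% of all genes higher. The lower gene, Pold4, a small subunit of polymerase delta, had the largest absolute log2 fold change of the list, −0.70 ± 0.16 (SE, edgeR adjusted p = 0.062), with 15.3 and 13.4 CPM in controls against 8.05 and 9.64 in mimic libraries. Orc2, a further subunit of the origin recognition complex, had 20.3 and 18.97 CPM under the mimic control and 31.6 and 28.6 in the mimic libraries (log2 fold change 0.62 ± 0.12, edgeR adjusted p = 0.0413). Hells, a chromatin remodeller needed for DNA methylation, had 68.9 and 75.0 against 113.3 and 98.6 CPM (log2 fold change 0.56 ± 0.11, edgeR adjusted p = 0.0419). In both genes the groups did not overlap. Of 24 tested G1 and G1/S regulators, 0 passed the adjusted threshold in either direction, 8 were higher and 2 lower at an unadjusted p under 0.05, and the median was 0.21. The lowest p in that list belonged to E2f2, another activating E2F, with 50.8 and 58.5 CPM under the mimic control and 91.6 and 74.3 in the mimic libraries (log2 fold change 0.60 ± 0.13, edgeR adjusted p = 0.0537). Nucleotide genes outside the members did not share a direction. Of 12, 6 were above 0 and 6 below, with a median of 0.00. Tk2, the mitochondrial thymidine kinase, fell from 9.18 and 8.36 CPM to 4.02 and 4.86 (log2 fold change −0.98 ± 0.19, edgeR adjusted p = 0.0396), while the S phase kinase Tk1 had a log2 fold change of 0.02. Without mimic control replicate 1 or without miR-181a-5p mimic replicate 3 the count of lower genes over all these lists was 0, against 1 with all libraries, and the count of higher genes was 1 and 0, against 2. Without mimic control replicate 2 or without miR-181a-5p mimic replicate 4 more genes of these lists were called higher, as were more of all genes.

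**Figure D4:**
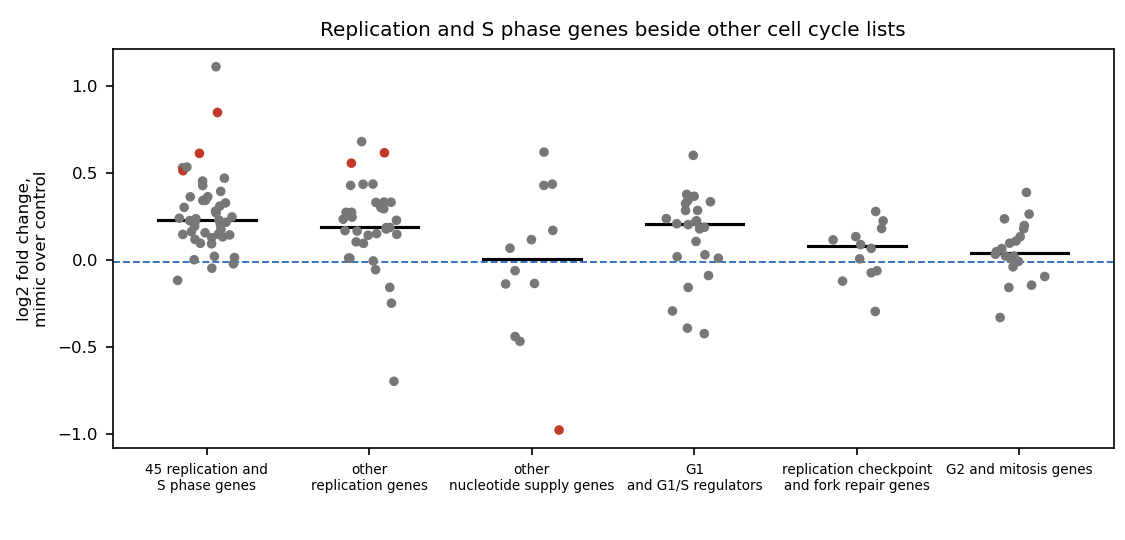
Each point is a tested gene, placed by list on the horizontal axis and by its fitted log2 fold change, miR-181a-5p mimic over mimic control, on the vertical axis. Black bars are list medians, the dashed line is the median of all tested genes, and red points passed an adjusted p under 0.05. The medians are 0.23 for the 45 members, 0.19 for other replication genes, 0.00 for other nucleotide supply genes, 0.21 for G1 and G1/S regulators, 0.08 for replication checkpoint and fork repair genes and 0.04 for G2 and mitosis genes.

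The remaining lists also had medians below that of the members. The 20 G2 and mitosis genes had a median of 0.04, with 0 past edgeR's adjusted threshold and 3 higher and 1 lower at an unadjusted p under 0.05. Both mimic libraries lay above both controls in 8 of the 20, against 28.9% of all tested genes. They lay below both in 1, and the groups overlapped in 11. Mki67 encodes the proliferation antigen Ki67, one of the markers chosen for dividing cells. It had 742.5 and 782.6 CPM under the mimic control and 802.1 and 715.2 with the mimic. The groups overlapped, with a log2 fold change of −0.01 ± 0.11 (SE, edgeR adjusted p = 0.974) and a 95% interval from −0.27 to 0.25. Its sign changed with the scaling of the libraries. Plk1, the mitotic kinase with the lowest p of the list, had 68.7 and 64.8 against 90.4 and 84.5 CPM (log2 fold change 0.39 ± 0.10, edgeR adjusted p = 0.0724). The 12 replication checkpoint and fork repair genes had a median of 0.08, with 0 past the adjusted threshold and 1 higher and 1 lower at an unadjusted p under 0.05. Blm, a helicase that resolves recombination intermediates, had 32.1 and 31.7 against 37.4 and 40.0 CPM (log2 fold change 0.28 ± 0.11, edgeR adjusted p = 0.16). Differences between these lists and the members were not tested.

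Markers of the epithelial cell types moved in part with the groups. Of 8 stem cell markers 1 fell, Lgr5, from 114.6 and 92.7 TPM to 26.9 and 54.1 (edgeR adjusted p = 0.037), while 6 of the 8 had log2 fold changes above 0, with a list median of 0.14. Smoc2 had 159.3 and 128 TPM in the controls, 185.2 and 219.3 with the mimic and a log2 fold change of 0.48 (edgeR adjusted p = 0.0794), and Slc12a2 and Cdca7 also had groups apart with the mimic higher. Ascl2, like Lgr5, was lower in each mimic library than in either control, though it did not pass the test (log2 fold change −0.49, edgeR adjusted p = 0.272). The stem cell list's summed TPM was 941.4 and 685 under the mimic control and 818.1 and 1010 with the mimic. Of 10 enterocyte markers 1 fell, Anpep, from 655.5 and 447.7 to 103.3 and 162.4 TPM (log2 fold change −2.14). At an unadjusted p under 0.05, 3 enterocyte markers were lower and 1 was higher, and the list's median log2 fold change was −0.34, with sums of 4584 and 5892 against 4900 and 4194 TPM. Of 7 goblet cell markers 1 fell, Spink4, with 2 lower and 1 higher at an unadjusted p under 0.05 and sums of 1264 and 1369 against 1172 and 1215 TPM. None of 8 Paneth cell markers passed edgeR's test, with 0 higher and 3 lower at an unadjusted p under 0.05, and sums of 2240 and 1193 against 1228 and 1555 TPM. None of 8 enteroendocrine markers passed it either, with 0 at an unadjusted p under 0.05, and tuft cell sums stayed between 4.04 and 7.56 TPM. The part of these cell types in the values of the replication genes was not tested.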

How the data were processed

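Total RNA of 4 mouse SI organoid cultures was measured by RNA-seq. The authors trimmed single reads with Trimmomatic and quantified them with RSEM against GRCm38 transcripts. Ribosomal RNA was depleted according to the supplemental methods, whereas the labels name poly(A) enrichment. The authors deposited expected counts (estimated counts per gene, not normalized) and TPM. A further 3 columns of each file matched no sample and were not used.

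After rounding, the expected counts went into edgeR 4.0.16 under R 4.3.3, with its filterByExpr filter, TMM scaling, glmQLFit (new form) and glmQLFTest. Benjamini-Hochberg adjustment covered 17155 genes. The SE was taken as the absolute log2 fold change over the root of F, and 95% intervals use edgeR's degrees of freedom. The reported fit, edgeR's other tests, DESeq2, limma on log2(TPM + 1) and the fit without mimic control replicate 1 were tested on simulated counts. The other alternatives were not. Depth was 31104884 to 38111731 expected counts per library. With 2 libraries per group, precision is set by replicate spread. For 19 members an expected count was not whole in at least 1 library, so reads were shared with other transcripts.

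The members, role groups and lists were chosen with earlier results of these data known. Named with full statistics were the members called, the 3 highest and 3 lowest log2 fold changes, the highest mean TPM of each role group and Ccnd1. Outside the members the called gene or the lowest p of each list and Mki67 were named. Orc1, Cdc6, Mcm5 and Rrm1, which also have full statistics, E2f1, other members with values, Ccnd2, Ccnd3, Pold4, overlapping genes and markers were named after their values were seen. Alternatives were edgeR's exact, likelihood-ratio, legacy and robust tests, DESeq2 1.42.0, 3 other scalings, 2 other filters, limma 3.58.1 on log2(TPM + 1) and log2(TPM + 0.1), and leaving out each library. UTR sites came from GENCODE release 21, and promoters and miRNAs from RefSeq.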

Additional observations from a re-analysis of the deposited data

How the results depend on the processing

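No paired analysis was possible because the groups share no replicate numbers in the labels. The count of members higher at an adjusted p under 0.05 was 3 in the reported fit, 3 with the legacy and robust tests, RLE factors and at least 10 counts in every library, and 2 with upper-quartile factors. It was 8 with edgeR's exact test, 9 with its likelihood-ratio test, 8 with DESeq2 and 5 with library totals alone. It was 0 without a filter and by limma on log2(TPM + 1), log2(TPM + 0.1) and log2(TPM + 1) without a filter. There, 17 to 21 members had an unadjusted p under 0.05, and the share of all genes at that p is not given here. Calls higher over all genes were 220 in the reported fit, 761 with the exact test, 792 with the likelihood-ratio test and 613 with DESeq2. They were 272 with library totals alone, 173 with upper-quartile factors and 67 without a filter. By limma, in the order above, they were 32, 11 and 2. Leaving out 1 library moved the calls over all genes and the members' count, though not always together. Without mimic control replicate 1 calls higher over all genes did not fall, while the members' count did. Requiring a 2-fold change as well, the count was 1 with the exact test, the likelihood-ratio test and DESeq2, and 0 to 1 when a library was left out. Members called lower were 0 under every alternative. The members' median log2 fold change was 0.18 with upper-quartile factors and up to 0.26 by limma on log2(TPM + 0.1). It was 0.17 to 0.28 when a library was left out. Over all tested genes the median was −0.0634 with upper-quartile factors and 0.0652 by limma on log2(TPM + 0.1), against −0.0123 in the reported fit. In the other lists, genes called higher were 2 in the reported fit, 11 with the exact and likelihood-ratio tests, 9 with DESeq2, 1 with upper-quartile factors, 4 with library totals, 0 without a filter and by limma, and 0 to 12 when a library was left out. Genes called lower were 1 in the reported fit, 4 with the exact and likelihood-ratio tests and DESeq2, 0 without a filter and by limma, and 0 to 5 when a library was left out. The cause of these shifts was not tested. Mcm2 and Ccne2 passed in 11 of 17 alternatives and Fen1 in 10, with adjusted p from 0.00115 to 0.295, from 0.000154 to 0.322 and from 0.00107 to 0.314. Signs changed in 7 of the 52 single genes followed, all with log2 fold changes near 0. With upper-quartile factors Pola1 was −0.0504, Pold3 −0.0369 and Tk1 −0.03, and with at least 10 counts Pola1 was −0.0103. By limma on log2(TPM + 1), with and without the filter, Gins4 was 0.0387 and Mki67 0.0663, and on log2(TPM + 0.1) they were 0.0407 and 0.067. Mki67 was 0.0149 with library totals and 0.0006 without a filter. Leaving out a library gave −0.0317 to 0.2255 for Cdt1, −0.1858 to 0.102 for Gins2, −0.0617 to 0.0169 for Gins4, −0.0824 to 0.0847 for Pola1, −0.0866 to 0.1091 for Pold3, −0.0042 to 0.0454 for Tk1 and −0.0924 to 0.0729 for Mki67. Of the 45 members, 39 kept one sign throughout.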
